A study of Mus musculus with 60 samples.

Results

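Oxygen-responsive and glycolytic transcripts were followed through 10 mouse genes, Slc2a1, Hk2, Pgk1, Ldha, Pdk1, Vegfa, Bnip3, Ndrg1, Adm and Egln3, taken by symbol from a count table of 47729 mouse genes. All 10 were found there. The rule that names them uses no measured value, though they were chosen with earlier results of these data known. The table held 60 single PyMT-Bo1 cells, a mouse mammary tumor line, isolated from bone after intracardiac injection. Of these, 32 were DiD+ and 28 were DiD-.

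DiD is a membrane dye that is diluted at each division, so that cells that kept it (DiD intensity High, called dormant) could be sorted apart from cells that lost it (DiD intensity Low, called proliferative). Both groups came from the same hosts, wild-type C57BL6 female mice of 8 to 10 weeks, and were collected on day 11. Femurs and tibias of 5 mice were pooled and no mouse is named for a cell, so each group is 1 sample, no test between groups was possible, and no p-value is given. The line had been given Luc2, an H2B-mApple fusion and the surface marker Thy1.1, and both gates took CD45- cells. The cells all derive from 1 established line.

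Cells short of oxygen switch on a shared set of genes. When oxygen is ample, the EGLN prolyl hydroxylases tag the alpha subunit of the hypoxia-inducible factor (HIF) and the VHL protein directs it to destruction, and when oxygen is scarce the subunit persists, pairs with ARNT and binds DNA at elements built on the letters ACGTG or GCGTG. Its targets bring glucose into the cell, speed glycolysis, turn pyruvate into lactate and away from the mitochondrion, and call in blood vessels. Bone marrow is known as a tissue of low oxygen tension.

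RefSeq promoter windows of 300 bases (250 before the start of transcription and 50 after it, build GRCm38.p6) were at hand for 9 of the 10 genes, all but Ndrg1. Each of the 9 genes held ACGTG or GCGTG on either strand in at least 1 of its windows, though Vegfa did not in the window at its 5' end. Ldha, Pdk1 and Vegfa had 2 starts each. Counted by window, 10 of 12 (83.3%) held a match, against 43.8% of all 32851 windows of that length. ACGTG and GCGTG both hold the letters CG, and the windows were not matched for how often CG occurs. Its part in the difference was not tested. The search took ACGTG and GCGTG and their reverse complements CACGT and CACGC, and a match overlaps the E-box letters CACGTG wherever these occur, which was in 7.15% of all windows. The 6 windows below are shown because they belong to the 4 members with the highest level per length, to Hk2 at the entry of glycolysis, and to Pdk1, the member past 2-fold in the summed counts of all cells. Each is written 5' to 3' on the strand of the gene, with every match in capitals.
Slc2a1, chr4:119108495-119108794, plus strand: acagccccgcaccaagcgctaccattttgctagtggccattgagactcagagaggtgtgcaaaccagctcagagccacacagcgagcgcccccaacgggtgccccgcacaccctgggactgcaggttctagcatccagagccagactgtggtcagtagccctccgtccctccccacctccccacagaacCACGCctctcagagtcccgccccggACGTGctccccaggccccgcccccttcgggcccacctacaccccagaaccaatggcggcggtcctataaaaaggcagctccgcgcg
Hk2, chr6:82774405-82774704, minus strand: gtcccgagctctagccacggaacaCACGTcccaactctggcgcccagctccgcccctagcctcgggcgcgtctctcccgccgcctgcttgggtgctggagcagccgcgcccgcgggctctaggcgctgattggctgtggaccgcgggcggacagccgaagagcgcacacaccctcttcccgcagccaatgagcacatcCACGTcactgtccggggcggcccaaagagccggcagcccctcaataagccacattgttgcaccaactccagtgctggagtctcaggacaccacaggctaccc
Pgk1, chrX:106186850-106187149, plus strand: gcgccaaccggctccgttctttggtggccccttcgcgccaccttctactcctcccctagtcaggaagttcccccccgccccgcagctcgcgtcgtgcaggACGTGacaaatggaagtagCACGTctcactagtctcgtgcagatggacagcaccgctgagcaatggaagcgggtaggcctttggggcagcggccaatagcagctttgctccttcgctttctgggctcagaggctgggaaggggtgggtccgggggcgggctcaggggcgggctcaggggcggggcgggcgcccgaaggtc
Ldha, chr7:46845554-46845853, plus strand: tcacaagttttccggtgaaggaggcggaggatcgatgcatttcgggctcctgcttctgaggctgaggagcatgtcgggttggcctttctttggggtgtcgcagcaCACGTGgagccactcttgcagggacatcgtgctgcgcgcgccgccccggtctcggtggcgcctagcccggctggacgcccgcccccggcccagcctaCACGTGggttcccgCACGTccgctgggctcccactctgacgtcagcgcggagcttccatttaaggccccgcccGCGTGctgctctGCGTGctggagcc
Pdk1, chr2:71872974-71873273, plus strand: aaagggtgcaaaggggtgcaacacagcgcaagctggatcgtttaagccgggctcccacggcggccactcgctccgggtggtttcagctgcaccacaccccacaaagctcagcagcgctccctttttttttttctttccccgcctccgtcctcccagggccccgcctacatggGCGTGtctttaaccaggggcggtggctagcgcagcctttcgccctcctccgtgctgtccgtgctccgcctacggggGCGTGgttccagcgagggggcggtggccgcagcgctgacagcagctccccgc
Bnip3, chr7:138909457-138909756, minus strand: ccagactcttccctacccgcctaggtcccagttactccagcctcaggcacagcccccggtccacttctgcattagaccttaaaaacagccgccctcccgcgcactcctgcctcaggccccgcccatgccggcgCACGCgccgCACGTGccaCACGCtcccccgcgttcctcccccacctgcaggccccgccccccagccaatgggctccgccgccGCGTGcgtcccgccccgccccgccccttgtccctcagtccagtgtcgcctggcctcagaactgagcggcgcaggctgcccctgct

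In Pgk1 the ACGTG and CACGT copies lay close together, starting 150 and 131 bases before the start of transcription. Ldha held the most matches, 7 in the window shown, and 2 pairs of them were formed by the palindrome CACGTG. Its other window (46846832 to 46847131) held 2. Both windows lay inside Ldha as annotated (46841475 to 46855627), and neither spanned the annotated 5' end. Bnip3 held 5 matches, also with CACGTG among them, and Pdk1 held 2 copies of GCGTG. One of the 2 windows of Vegfa and one of the 2 of Pdk1 held none, which says only that these letters were absent from those 300 bases. For Vegfa the window without a match spanned the annotated 5' end of the gene (46032328 to 46032627). Its 2 matches lay in a window inside the gene (46025114 to 46025413). A match is a feature of the sequence, and no binding was measured in these cells.

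The libraries held 2276789 to 7794219 counts on mouse genes per DiD+ cell (median 4653711) and 2624405 to 6199108 per DiD- cell (median 4440161). Values are given as CPM, the counts of a gene scaled to 1000000 mouse-gene counts, per cell or for the summed counts of a group. The intervals of summed counts are exact Poisson intervals at 95% that cover the counting of reads only. The epithelial markers Krt8 and Krt18 had counts in both groups, whereas Epcam, Krt7 and Krt19 were at 0 in all 60 cells. Per cell, the epithelial markers summed to 266 to 6342 CPM in DiD+ cells and 356 to 12020 CPM in DiD- cells. The median sum was lower in DiD+ cells, 2201 against 4627 CPM. In 6 DiD+ and 3 DiD- wells, at least 7 of 13 macrophage or monocyte markers or 4 of 7 erythroid markers reached 10 counts. The 13 macrophage markers, all with counts in both groups, summed to between 0 and 20730 CPM per DiD+ cell and between 0 and 1816 CPM per DiD- cell. The erythroid markers ranged from 0 to 174300 and from 0 to 46540 CPM. Their part in the results was not tested, and values without these 9 wells stand beside several results. Counts on the 4 transgenes in the table ran from 0 to 1689 per DiD+ cell and from 173 to 1967 per DiD- cell. The cell at 0 was DiD+ cell 30, one of the 9 wells, with 11 macrophage and 7 erythroid markers. Without cell 30 the log2 ratios of the 10 genes moved by at most 0.049, and that of Vegfa went from 0.97 to 1.02, past 2-fold.

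No shared shift of the 10 genes was seen. The log2 ratio of DiD+ over DiD- (summed CPM + 1) was above 0 for 4 of 10 genes, Pdk1, Vegfa, Hk2 and Egln3, beside 53.2% of the 12432 genes that reached 1 CPM in either group. One of the 10, Pdk1, reached 2-fold higher in DiD+ cells, beside 12.1% of all genes, and 0 of 10 were 2-fold lower, beside 4.86%. The median log2 ratio over the 10 was -0.11, with all genes at 0.04 and their middle 50% between -0.29 and 0.46. The ranges over cells of the 2 groups overlapped for all 10 genes. In the median DiD+ cell, 8 of the 10 genes had a count, and 7 in the median DiD- cell.

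**Figure D1:**
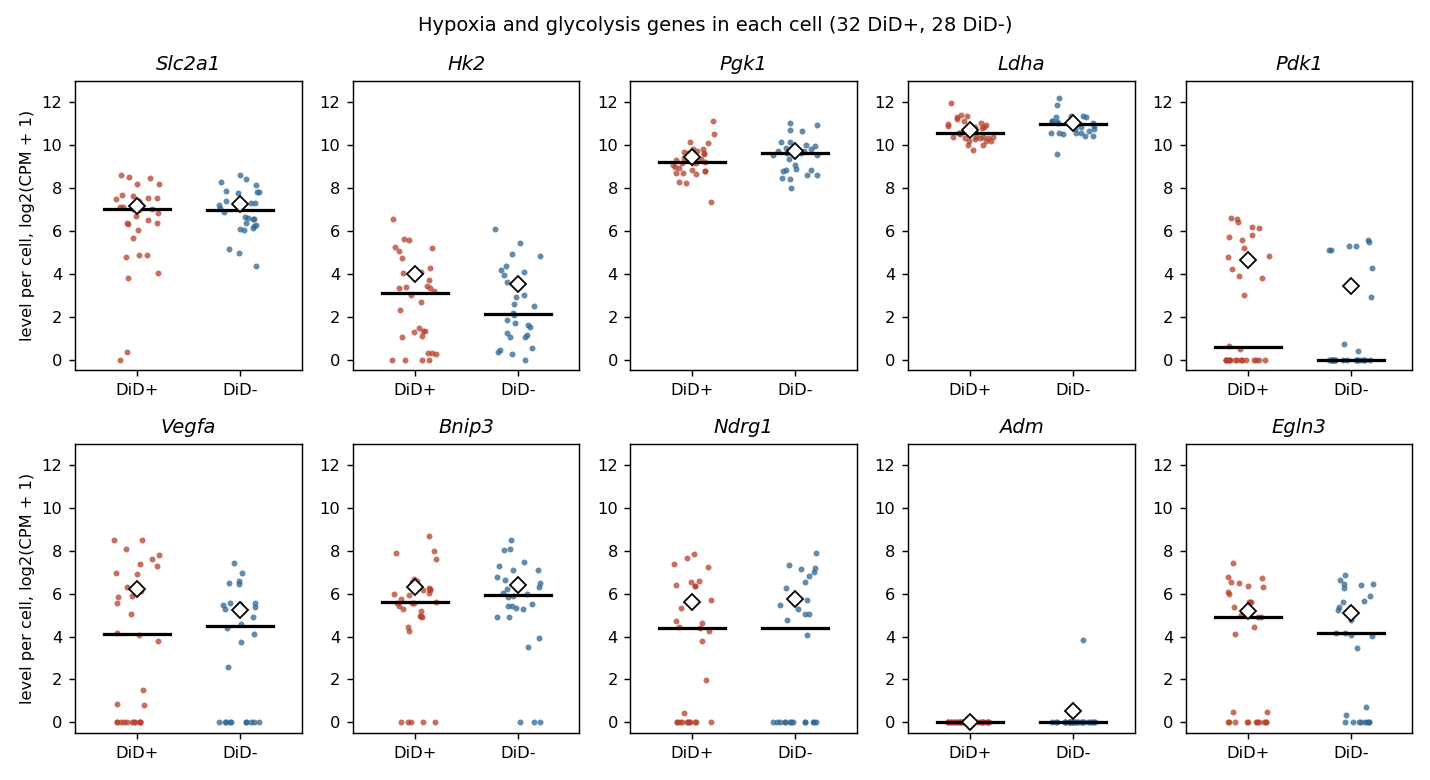
Level of each of the 10 genes in each cell as log2(CPM + 1), for 32 DiD+ and 28 DiD- cells. Each point is 1 cell, the bar is the median over cells and the diamond is the level of the summed counts of the group. Ldha and Pgk1 had counts in every cell and Adm in 1 cell, and several of the others split into cells at 0 and cells with a clear level.

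Slc2a1 encodes GLUT1, a transporter that brings glucose into cells (chromosome 4, 119108711 to 119137983, plus strand). Slc2a1 ranged from 0 to 396.5 CPM in DiD+ cells with a median of 127 and from 19.6 to 397 CPM in DiD- cells with a median of 124. The highest cells of the groups were level, and the only clear gap was at the bottom, where DiD+ cells 88 and 68 stood at 0 and 0.27 CPM. The summed level was 144 CPM in DiD+ (142.5 to 146) and 154 CPM in DiD- (152 to 156.5), a log2 ratio of -0.09. The ratio depended on which cells were counted, and was -0.21 without the wells with host markers. Among cells numbered 17 to 46 in the labels (18 DiD+ and 12 DiD-) it was 0.33, and among those numbered 63 to 92 (14 and 16) it was -0.81. The labels do not say what separates the 2 runs of numbers.

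Hk2 encodes hexokinase 2, which traps glucose inside the cell by phosphorylation (chromosome 6, 82725025 to 82774454, minus strand). It was found in 28 of 32 DiD+ cells and 27 of 28 DiD- cells, at low levels of 0 to 94.3 CPM (median 7.62) and 0 to 66.7 CPM (median 3.35). Its summed level was 15.03 CPM in DiD+ (14.4 to 15.7) and 10.5 CPM in DiD- (9.88 to 11.1), a log2 ratio of 0.48. Few cells carried these sums. DiD+ cell 41 gave 21.4% of the DiD+ counts and DiD- cell 26 gave 27.9% of the DiD- counts, and the ratio was 0.21 without the first and 0.85 without the second. It was 0.67 without the wells with host markers.

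Pgk1 (phosphoglycerate kinase 1, which makes the first ATP of glycolysis; chromosome X, 106187100 to 106203699, plus strand) and Ldha (lactate dehydrogenase A, which turns pyruvate into lactate; chromosome 7, 46841475 to 46855627, plus strand) were the only members with counts in all 60 cells. Pgk1 ranged from 162 to 2232 CPM with a median of 589 in DiD+ cells and from 258 to 2087 CPM with a median of 796 in DiD- cells. Its summed level was 704 CPM in DiD+ (699.9 to 708.5) and 863.5 CPM in DiD- (858 to 869), a log2 ratio of -0.29. Ldha ranged from 881 to 4073 CPM with a median of 1525 in DiD+ cells and from 784 to 4770 CPM with a median of 2066 in DiD- cells. Its summed level was 1704 CPM in DiD+ (1697 to 1710) and 2110 CPM in DiD- (2102 to 2118), a log2 ratio of -0.31. For both genes the DiD- median was the higher of the 2 and the ranges overlapped almost fully. Cell 87 was the highest DiD+ cell and cell 33 the highest DiD- cell for both. For Pgk1, DiD- cell 74 was close behind cell 33, at 1988 CPM. The Ldha ratio was nearly level across the cell numbers, -0.32 for 17 to 46 and -0.36 for 63 to 92, whereas that of Pgk1 went from -0.52 to -0.07. Reads of Pgk1 and Ldha could be split with near-identical copies elsewhere in the genome. The copy Pgk1-rs7 held 0.73% of the counts of the pair, and the Ldha pseudogenes in the table held less.

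Pdk1 encodes pyruvate dehydrogenase kinase 1, which blocks the entry of pyruvate into the citric acid cycle (chromosome 2, 71873224 to 71903858, plus strand). Its transcript was counted in 17 of 32 DiD+ cells (53.1%, exact binomial interval 34.7 to 70.9%) and in 10 of 28 DiD- cells (35.7%, 18.6 to 55.9%). After each cell was thinned to 2200000 counts the numbers were 17 and 9. Levels ran from 0 to 96.3 CPM with a median of 0.48 in DiD+ cells and from 0 to 47.4 CPM with a median of 0 in DiD- cells. Cells above 10 CPM numbered 14 in DiD+ and 7 in DiD-. The summed level was 23.7 CPM in DiD+ (22.9 to 24.5) and 9.70 CPM in DiD- (9.15 to 10.3), a log2 ratio of 1.21. With all 60 cells or with any 1 left out, the ratio of Pdk1 was past 2-fold. It was 1.18 and 1.15 in the 2 runs of cell numbers, 1.15 without the wells with host markers, and between 1.02 and 1.46 with each cell left out in turn.

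Vegfa encodes vascular endothelial growth factor A, the main signal for new vessels (chromosome 17, 46016993 to 46032369, minus strand). It was found in 21 of 32 DiD+ cells and 18 of 28 DiD- cells, nearly the same share (65.6% and 64.3%). DiD+ cells ranged from 0 to 367 CPM with a median of 16.2, and DiD- cells from 0 to 174 CPM with a median of 21.5. The median was thus lower in DiD+ cells, while the top of the range was higher. Above 100 CPM stood 9 DiD+ cells, of which cells 19, 21 and 37 carried host markers, and 2 DiD- cells. With those cells the summed level was 74.1 CPM in DiD+ (72.7 to 75.5) and 37.3 CPM in DiD- (36.2 to 38.4), a log2 ratio of 0.97, whereas the difference of the mean log2(CPM + 1) over cells was 0.28. The ratio was 1.57 in cells 17 to 46, 0.41 in cells 63 to 92, and 0.86 without the wells with host markers.

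Adm encodes adrenomedullin, a peptide that widens vessels (chromosome 7, 110627661 to 110629820, plus strand). It was at 0 counts in all 32 DiD+ cells and had 54 counts in 1 DiD- cell, cell 20, at 13.4 CPM. The summed level of Adm was 0.45 CPM in DiD-, all from that cell, and 0 in DiD+, where 3 counts over the group would be 0.0205 CPM. No fold is drawn from these sums, since they rest on 1 cell. With 1 CPM added, the log2 ratio was -0.54. By the exact intervals, 0 of 32 DiD+ cells allows up to 10.9%, and 1 of 28 DiD- cells 0.09 to 18.35%. These intervals overlap. Adm was therefore not detectable in nearly all of these cells at this depth.

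Bnip3 encodes a mitochondrial protein that marks mitochondria for autophagy (chromosome 7, 138890836 to 138909519, minus strand). It ranged from 0 to 415 CPM in DiD+ cells with a median of 47.5 and from 0 to 361 CPM in DiD- cells with a median of 60.01. Its summed level was 77.5 CPM in DiD+ (76.1 to 78.97) and 84.6 CPM in DiD- (83 to 86.3), a log2 ratio of -0.13. The highest DiD+ cell, cell 19, carried host markers and 20.5% of the DiD+ counts, and the ratio was -0.40 without it. Leaving out DiD- cell 71, 74 or 86 brought it to between 0 and 0.01. The ratio was 0.34 in cells 17 to 46 and -0.63 in cells 63 to 92, the same turn as for Slc2a1.

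Ndrg1 and Egln3 were each found in 21 of 32 DiD+ cells, and in 15 and 20 of 28 DiD- cells. Ndrg1, a stress-induced gene linked to growth arrest and differentiation (chromosome 15, 66929318 to 66969640, minus strand), ranged from 0 to 228 CPM in DiD+ cells with a median of 20.3 and from 0 to 239.9 CPM in DiD- cells with a median of 20.96. Its summed levels were 48.3 CPM in DiD+ (47.2 to 49.5) and 52.6 CPM in DiD- (51.4 to 54.0), a log2 ratio of -0.12. The sign of that ratio was not stable. It was 0.17 without the wells with host markers, and above 0 without DiD- cell 28 or 71 (0.08 without the latter). Egln3, an oxygen sensor of the prolyl hydroxylase family that is itself a HIF target (chromosome 12, 54178981 to 54203860, minus strand), ranged from 0 to 174.5 CPM in DiD+ cells with a median of 29.1 and from 0 to 115 CPM in DiD- cells with a median of 16.8. Its summed levels were 35.7 CPM in DiD+ (34.7 to 36.6) and 32.7 CPM in DiD- (31.7 to 33.8), a log2 ratio of 0.12 that was -0.02 without DiD+ cell 63.

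**Figure D2:**
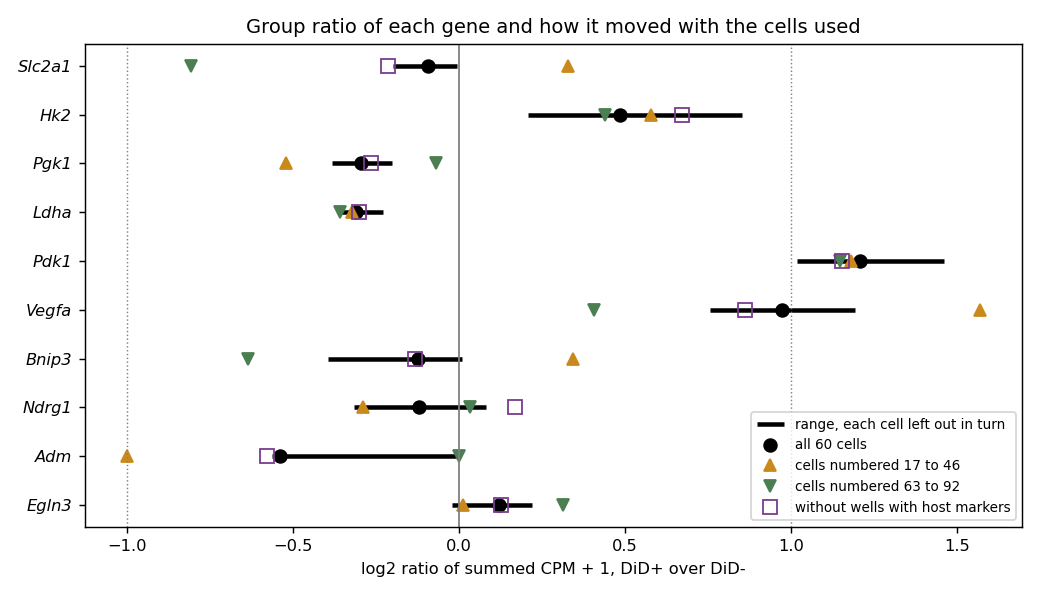
Log2 ratio of summed CPM + 1, DiD+ over DiD-, for each of the 10 genes. Circles are all 60 cells, bars the range with each cell left out in turn, triangles the 2 runs of cell numbers, and squares the cells without host markers. Pdk1 stayed between 1.02 and 1.46 and Ldha below 0 throughout, while Slc2a1 and Bnip3 lay on either side of 0 in the 2 runs.

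Levels were compared between genes per kilobase of summed exon length (GENCODE M21 annotation). Ldha led in both groups, at 515 CPM per kb in DiD+ and 637.5 in DiD-, followed by Pgk1 at 314 and 385. Their middle 50% of cells did not overlap with each other or with the next gene. Slc2a1 (41.2 and 44 CPM per kb) and Bnip3 (34.2 and 37.4) came next and overlapped over cells. Vegfa (17.3 and 8.71), Egln3 (13.4 and 12.3) and Ndrg1 (7.33 and 7.98) followed, in an order that differed between the groups for Vegfa and Egln3. Pdk1 (3.05 and 1.25) and Hk2 (2.52 and 1.75) stood last of the genes found in several cells, also with their order exchanged. From Slc2a1 down to Hk2, neighbors in the order did not differ beyond the spread over cells, since the middle 50% of their cells overlapped.

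Across the 60 cells the 10 genes did not move as 1 block. Spearman's rho of log2(CPM + 1) over the 36 pairs of genes other than Adm had a median of 0.03 and ran from -0.18 to 0.49, with 5 pairs at 0.3 or more. The cells share a sort, a plate-based protocol and differing depth, and genes with many zeros limit what such a coefficient can show, so these are descriptions. Apart from these low values, Pgk1 with Ldha and 2 pairs that share Vegfa stood out by size. Pgk1 and Ldha went together (0.48 over all cells, 0.36 within the 32 DiD+ cells and 0.52 within the 28 DiD- cells). Vegfa went with Slc2a1 (0.49, with 0.68 in DiD+ and 0.24 in DiD-) and with Hk2 (0.46, with 0.40 and 0.45). Slc2a1 and Hk2 did not go with each other (0.02, with 0.14 in DiD+ and -0.16 in DiD-). Pgk1 and Ldha had low coefficients with Vegfa, Slc2a1 and Hk2, from -0.18 for Vegfa with Pgk1 to 0.11 for Slc2a1 with Ldha.

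**Figure D3:**
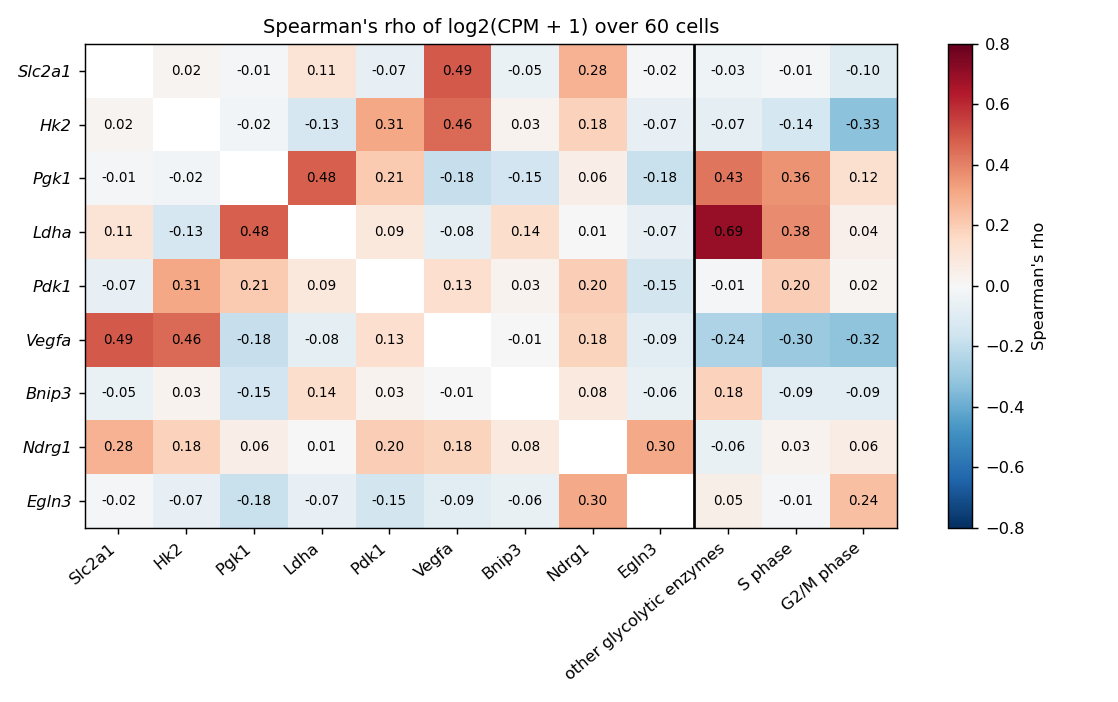
Spearman's rho over 60 cells among 9 of the genes (Adm is left out, with counts in 1 cell) and, right of the line, with the summed CPM of the other glycolytic enzymes, S phase genes and G2/M phase genes. Ldha reached 0.69 with the other glycolytic enzymes, and Vegfa was at -0.24 with them.

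**Figure D4:**
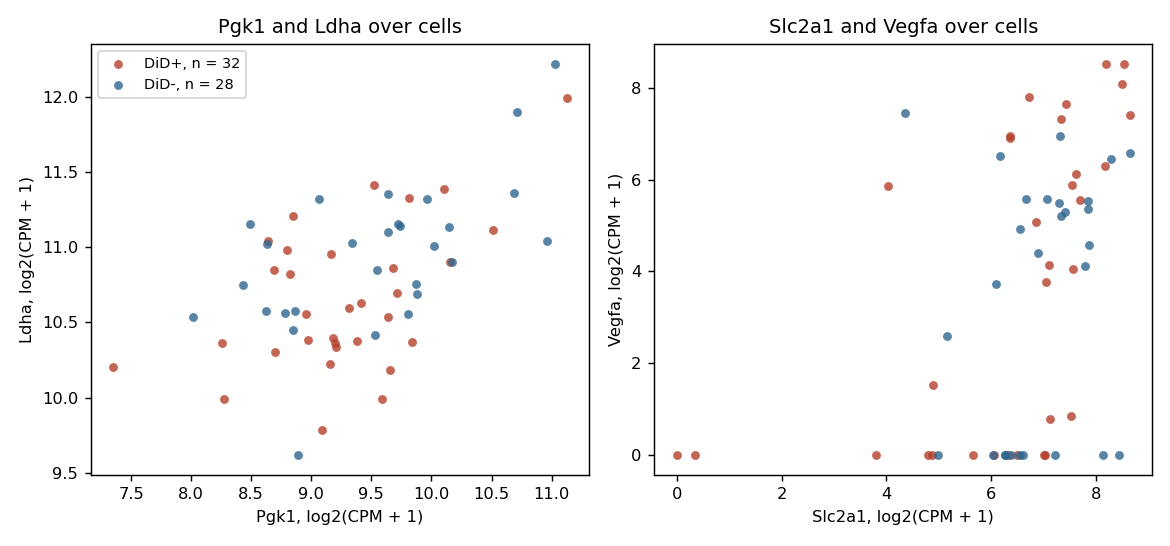
Levels of Pgk1 and Ldha (left) and of Slc2a1 and Vegfa (right) in each cell, as log2(CPM + 1), with DiD+ cells in red and DiD- cells in blue. On the left both groups lie along 1 band (rho 0.48), and on the right Vegfa is at 0 in many cells that have Slc2a1.

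The same genes were set beside the cell cycle. Ldha and Pgk1 had a rho of 0.38 and 0.36 with the summed CPM of 42 S phase genes, and of 0.04 and 0.12 with the sum of 52 G2/M genes. Vegfa was at -0.30 with S phase and at -0.32 with G2/M, the latter being -0.44 within DiD+ cells and -0.10 within DiD- cells. Hk2 was at -0.14 and -0.33 with the 2 sums, and Slc2a1 at -0.01 and -0.10. The cycle sums themselves differed between the groups. S phase genes summed to 383 to 14390 CPM (median 1753) in DiD+ cells and to 1127 to 13520 CPM (median 4386) in DiD- cells, and G2/M genes to 617 to 28000 (median 1803) and 853 to 22940 (median 6864). Ldha and Pgk1 were also at -0.33 and -0.38 with the spike-in share of the library, which ran from 0.56 to 6.53% in DiD+ and from 0.56 to 2.53% in DiD- cells. Over all cells none of the 9 genes went with Hif1a itself beyond 0.19, although Egln3 was at 0.33 with it within DiD+ cells and at -0.44 within DiD- cells. How far the cycle or the RNA content of a cell accounts for these levels was not tested.

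The other enzymes of glycolysis lay lower in DiD+ cells, as Pgk1 and Ldha did. Of the 15 on the list, 12 had a log2 ratio below 0 and 3 above it, where 53.2% of all genes were above 0, and the median was -0.22. The 3 above were Eno2, Aldoc and Pfkm, of which Eno2 had counts in 1 cell of each group and Aldoc in 5 DiD+ and 4 DiD- cells. Gapdh, the enzyme often used as a reference, reached 3715 CPM summed over DiD+ cells and 4167 CPM over DiD- cells, a log2 ratio of -0.17. Pkm, the pyruvate kinase gene of most tissues, was at 2945 and 3632 CPM with a ratio of -0.30. Eno1, the ubiquitous enolase, was at 4824 and 6748 CPM with a ratio of -0.48, and Eno3 had the lowest ratio of the list at -0.66. Summed per cell, the 15 enzymes ranged from 8500 to 24070 CPM in DiD+ cells (median 15390) and from 12690 to 36290 CPM in DiD- cells (median 18770). The groups overlapped, with DiD+ cells at the bottom of the joint range and DiD- cells at the top. Without the wells with host markers, 12 of the 15 were still below 0 and the median was -0.27.

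Besides Slc2a1, a list of 4 glucose and lactate transport genes was looked at, of which 2 reached 1 CPM. Slc2a3, the second high-affinity glucose carrier, was at 0 counts in all cells, and Slc16a3, the lactate exporter induced by hypoxia, reached only 0.041 CPM over DiD+ cells and 0.067 CPM over DiD- cells, from 1 and 3 cells. Slc16a1, the other lactate carrier, and Bsg, its chaperone, had ratios of -0.06 and 0.05. Around pyruvate dehydrogenase, where Pdk1 acts, 6 of 11 genes were above 0, beside 53.2% of all genes, and none was past 2-fold, with a median of 0.01. Pdk1 was not followed by its relatives as a set. Pdk2 had a ratio of 0.57 (31.03 and 20.6 CPM), Pdk3 one of -0.20 (99.1 and 114 CPM), and Pdk4 was at 0 counts in all cells. Per kilobase Pdk3 was the most abundant of the kinases in both groups, at 38.7 and 44.5 CPM.

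Genes of oxygen sensing were present in both groups. Hif1a, the HIF subunit found in these cells, stood at 101.5 CPM over DiD+ cells and 108 CPM over DiD- cells with a log2 ratio of -0.09, whereas Epas1 and Hif3a, the other alpha subunits, were at 0 counts. The difference of the mean log2(CPM + 1) over cells was -0.58 for Hif1a, and its log2 ratio was -0.47 in cells 17 to 46 and 0.32 in cells 63 to 92. Vhl was at 23.6 and 28.5 CPM with a ratio of -0.27 (-0.64 and 0.14 in the 2 runs of cell numbers), Hif1an, the asparagine hydroxylase that acts on the alpha subunit, at 9.82 and 14.4 CPM with a ratio of -0.51 (0.12 without DiD- cell 28), and Egln1, the main prolyl hydroxylase, at 33.98 and 29.8 CPM with a ratio of 0.18. Of the 6 genes of the list with at least 1 CPM, 1 was above 0, beside 53.2% of all genes, and 2 were without the wells with host markers. The list median was -0.18, with -0.08 without those wells and 0.04 in cells 63 to 92. HIF activity is set by protein stability, which transcript levels do not show.

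Of 20 other hypoxia-induced genes that reached 1 CPM, 13 were above 0, beside 53.2% of all genes. Their median of 0.18 was 0.09 without the wells with host markers, 0.265 in cells 17 to 46 and -0.11 in cells 63 to 92, and with spike-in scaling it was -0.34 where all genes were at -0.33. Pfkfb3, which makes the activator of phosphofructokinase, was the one past 2-fold higher in DiD+ (12.1% of all genes were), at 7.98 CPM against 0.23 CPM (ratio 2.86, found in 9 DiD+ cells but 1 DiD- cell), and its ratio was 1.82 without those wells. Car12, a carbonic anhydrase, was the one past 2-fold lower (4.86% of all genes were), at 0.47 and 2.74 CPM, with counts in 1 DiD+ and 3 DiD- cells. DiD- cell 77 held 59.9% of its DiD- counts, and the ratio was -0.55 without that cell. Among the better expressed of the list, Bhlhe40 was at 521.5 and 289 CPM (ratio 0.85, of which DiD+ cell 29 gave much, since it was 0.39 without it) and Angptl4 at 263 and 166 CPM (ratio 0.66, between 0.57 and 0.83 with each cell left out).

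Of 10 genes for VEGF family members and receptors, 7 were above 0, beside 53.2% of all genes, with a median of 0.38. That median was 0.108 without DiD+ cell 41, 0.086 in cells 63 to 92, and 0.093 as a difference of mean log2(CPM + 1) over cells. Pgf, a relative of Vegfa, had a ratio of 0.94 that was 1.76 without DiD- cell 65, which gave 49.3% of the DiD- counts. Nrp2, a co-receptor, had one of 0.79, while Kdr, the main VEGF receptor of endothelium, was at 0 counts. Flt1, another VEGF receptor, was lower in DiD+, at 18.7 and 29.6 CPM with counts in 20 DiD+ and 20 DiD- cells. Its ratio was -0.63, and between -0.915 and -0.458 with each cell left out. Also below 0 were Ramp1 (-0.91, counts in 2 DiD+ and 6 DiD- cells) and Vegfd (-0.04). Past 2-fold higher were 2 of the 10, Calcrl and its partner Ramp2, beside 12.1% of all genes. Calcrl, the receptor that adrenomedullin shares with related peptides, was at 5.89 and 0.44 CPM with counts in 11 DiD+ and 3 DiD- cells. Ramp2 rested on 1 cell, DiD+ cell 41 with 99.5% of the counts, without which its ratio was -0.70. Genes of these lists other than Hif1a, Epas1, Vhl, Egln1, Gapdh, Pkm, Slc16a3 and Pdk4 were named after their values were seen.

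**Figure D5:**
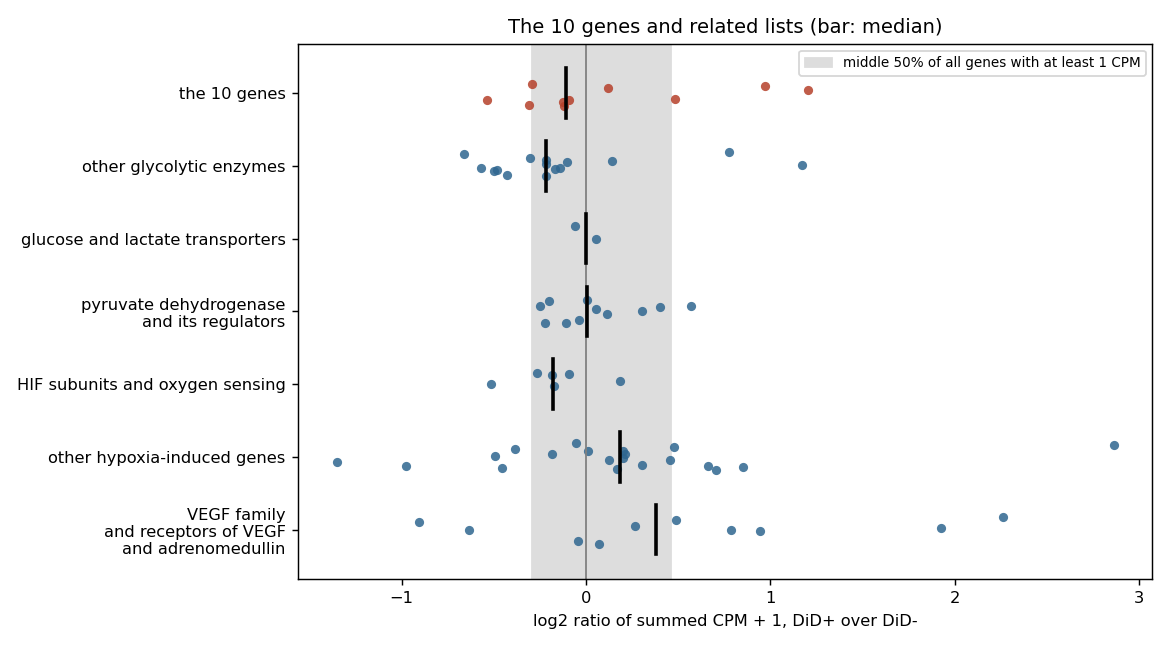
Log2 ratio of summed CPM + 1, DiD+ over DiD-, for the 10 genes (red) and the genes of 6 related lists that reached 1 CPM in either group (blue). Vertical bars are medians and the gray band is the middle 50% of all 12432 genes. Most glycolytic enzymes lie left of 0, at a median of -0.22.

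Over the 60 cells, the genes outside the set whose log2(CPM + 1) was most like the mean standardized level of the 10 genes were Vasn (Pearson's r 0.54), Faf1 (0.50), Abhd17c (0.49), Qdpr (0.49), Pgam1 (0.49), Csrnp1 (0.48), Slc38a10 (0.47), Coro1c (0.46), Rest (0.46) and Ywhaz (0.46), of 7258 genes compared. Only Pgam1, phosphoglycerate mutase of glycolysis, belonged to a list used here. When Adm, with its single cell, was left out of the mean, 6 of these 10 remained.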

How the data were processed

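Single cells had been sorted into plates as DiD+ or DiD-, and the table holds the 32 DiD+ and 28 DiD- cells that passed the study's quality control. Groups were read from the DiD intensity in the labels. According to the labels and methods, reads were trimmed, mapped by STAR onto the mouse build GRCm38/mm10, to which spike-in and transgene sequences had been added, and RSEM gave gene-level values; versions and the annotation release are not given in the sources used here. The instrument and read length differ between the sources, 150-bp in the labels and 125-bp in the methods. The table that the authors deposited holds estimated counts from RSEM, not normalized (47825 entries, of which 92 are spike-ins and 4 are transgenes), and 96.6% of the values were already whole. A second table, of BASiCS-normalized signal values deposited by the authors, lists 9 of the 10 genes and served only as an alternative scaling. All columns were matched to cells by label, and 0 were left unused.

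Estimated counts were rounded, and totals were taken over mouse genes alone. Summed counts of a group were scaled to CPM by its summed total, and log2 ratios were computed after adding 1 CPM. Since cells are not replicates, neither a p-value nor a standard error was computed. Intervals of summed counts cover the counting of reads only. Because the protocol has no molecular identifiers, they cover neither the sampling of molecules nor the spread between cells. Where a group had no count of a gene, 3 counts over the group were taken as the limit. The counting is not stated to use strand, and antisense genes over the exons of Slc2a1, Bnip3 and Ndrg1 held at most 33 counts in a group or were not in the table.

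The 10 genes and all lists were chosen with earlier results of these data known. The rule for named genes takes all 10, genes of the related lists that reached 10 CPM in either group with a ratio past 2-fold, 8 genes regardless of value, and the 10 genes with the highest Pearson's r with the mean pattern among genes that reached 10 CPM in both groups and were found in 30 cells or more. Other genes of the lists were named after their values were seen. List medians cover genes that reached 1 CPM in either group, except for the 10 genes, which all entered. No doublet caller was run, and no well was left out of the main values. Symbols were found for 47224 of the mouse genes. The computation of the log2 ratios was tested on simulated counts, drawn from the same profile for all cells of a group. That checks the arithmetic, not how ratios behave with spread between cells. Python 3.11.15 (numpy 2.4.6, pandas 2.3.3, scipy 1.17.1, matplotlib 3.10.9) and R 4.3.3 were used, the latter with edgeR 4.0.16 and DESeq2 1.42.0, which gave only scaling factors for alternatives. The alternatives are given in the closing section.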

Additional observations from a re-analysis of the deposited data

How the results depend on the processing

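The median log2 ratio of the 10 genes (-0.11) stayed between -0.14 and -0.07 under TMM or DESeq2 factors, BASiCS values, the difference of mean log2 levels, the mean of the per-cell CPM (-0.07), other pseudocounts and a minimum of 10 CPM. It was -0.057 in thinned cells, -0.005 without the wells with host markers, 0.17 in cells 17 to 46, 0.017 in cells 63 to 92, and -0.160 to 0.042 with each cell left out, above 0 only without DiD- cell 71. Scaling by spike-ins moved the median of all genes to -0.33 and that of the 10 genes to -0.59. It left 2 genes in place of 4 above 0, since Hk2 (-0.15) and Egln3 (-0.14) turned below it. With the all-gene median subtracted, each of the 10 kept the sign of its main value, which was not centered. That subtraction takes the common shift out again, so it does not test the spike-in scaling.

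The number past 2-fold higher (1) was 2 with the mean over cells, BASiCS values, thinned cells or cells 17 to 46, because Vegfa reached 2-fold, and 0 with a pseudocount of 10 CPM. It was 1 to 2 with each cell left out, and 2 without any 1 of 22 cells (18, 22, 23, 24, 25, 26, 30, 35, 38, 42, 64, 67, 68, 71, 72, 76, 80, 82, 86, 87, 88 and 89). The number past 2-fold lower was 1 with a pseudocount of 0.1 CPM, because of Adm, which had counts in 1 cell. Under 12 alternatives each, the ratios of Pgk1, Ldha, Pdk1 and Vegfa kept their sign in 12, and that of Ndrg1 in 8. Among the 12 are the pseudocounts of 0.1 and 10 CPM, which cannot change the sign of a ratio. Over the 12, Pgk1 ran from -0.58 to -0.07 and Ldha from -0.60 to -0.28. Pdk1 ran from 0.77 to 1.28 and Vegfa from 0.28 to 1.57. The list of other glycolytic enzymes kept a median below 0 in 14 of 14. The cause of these shifts was not tested.

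No paired analysis was possible because the labels give no animal for a cell, and no test was made.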
